A study of Mus musculus with 6 samples.

Results

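Chemokine ligands are small secreted proteins that direct the movement of leukocytes, and 10 of their genes were followed here among the 23268 genes of an RNA sequencing table. They were taken by gene symbol: Ccl1, Ccl3, Ccl4, Ccl5, Ccl17, Ccl22, Cxcl1, Cxcl2, Cxcl10 and Xcl1. All 10 were in the table. Group 2 innate lymphoid cells (ILC2s), resident lymphocytes that lack antigen receptors and release type 2 cytokines, were isolated by sorting from colons of 6 to 8 week old C57BL/6 mice. The DSS group had drunk 3% dextran sulfate sodium (DSS), which damages the gut lining and is used to model colitis, for 6 days, and the control group had drunk water. Each group had 3 libraries of full-length cDNA. No genotype other than the strain is given, and the labels do not say whether a library came from 1 mouse or from a pool, nor which surface markers defined the sort. The p-values below therefore reflect the spread among these samples only, and this may be technical.

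The ligands work through G protein-coupled receptors on the cells they attract. Cxcl1 and Cxcl2 call neutrophils through Cxcr2, and Cxcl10, an interferon-inducible ligand, calls T cells and NK cells through Cxcr3. Ccl1 is the ligand of Ccr8, and mouse ILC2s of other tissues are known to make it and to carry its receptor. Ccl3 and Ccl5 act on Ccr1, and activated lymphocytes and myeloid cells are known sources of them and of Ccl4, an attractant of monocytes and T cells. Xcl1, known from NK cells and T cells, acts on dendritic cells that carry Xcr1. Ccl17 and Ccl22 are the ligands of Ccr4 and are known from dendritic cells and macrophages. Several of these genes are textbook targets of NF-kB and of interferon signalling, which act at sites close to the start of the gene.

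Promoters from RefSeq (build GRCm38.p6) were in hand for 8 of the 10 genes, and not for Ccl4 and Ccl5. The stretch from 220 to 51 bases before the annotated start is shown for the 4 most abundant ligands, since the ratios of Ccl1 to the other 3 separated the groups without overlap. Capitals mark matches to the NF-kB consensus and, in Cxcl10, to GAAA followed, after 2 bases of any kind, by GAAA again, the core of an interferon-stimulated response element. Both strands were searched.
Cxcl1, chr5:90891025-90891194, plus strand: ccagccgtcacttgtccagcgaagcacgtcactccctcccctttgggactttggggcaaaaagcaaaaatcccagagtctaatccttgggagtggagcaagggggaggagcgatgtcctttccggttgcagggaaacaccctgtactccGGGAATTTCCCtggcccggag
Cxcl2, chr5:90903679-90903848, plus strand: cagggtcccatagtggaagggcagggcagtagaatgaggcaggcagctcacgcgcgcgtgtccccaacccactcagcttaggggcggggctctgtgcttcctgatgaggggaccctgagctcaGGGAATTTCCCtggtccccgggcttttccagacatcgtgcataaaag
Cxcl10, chr5:92348940-92349109, minus strand: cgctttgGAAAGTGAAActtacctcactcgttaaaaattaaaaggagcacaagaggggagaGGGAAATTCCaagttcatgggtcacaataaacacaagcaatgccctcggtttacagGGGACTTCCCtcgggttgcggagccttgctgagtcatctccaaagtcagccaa
Ccl1, chr11:82179863-82180032, minus strand: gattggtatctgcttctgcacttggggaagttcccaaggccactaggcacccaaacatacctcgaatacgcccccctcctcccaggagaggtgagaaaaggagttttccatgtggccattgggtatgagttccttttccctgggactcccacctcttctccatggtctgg
Cxcl1 and Cxcl2 hold the same 10 letters, GGGAATTTCC, which start 71 and 97 bases before the start site, and each overlaps a second match on the other strand that is shifted by 1 base. Cxcl10 holds GGGAAATTCC and GGGACTTCCC for NF-kB, starting 159 and 103 bases before the start, and GAAAGTGAAA, starting 213 bases before it. Ccl1 has no match to the consensus as searched in its window, and neither have Ccl3, Ccl17, Ccl22 and Xcl1. The printed stretch of Ccl1 does hold gggaagttcc, which differs in 1 letter from the Cxcl10 match GGGAAATTCC, so a looser pattern could match there. The window of Ccl1 belongs to the start its protein-coding transcripts share and not to the distant start of its longest annotated transcript. Of the 8 promoters, from 250 bases before the start to 50 after it, 3 hold an NF-kB match and 1 holds the paired GAAA, whereas of all 32851 promoters of that length 4.51% and 3.44% do. A match describes letters and not binding, and the part of these sites in the ligand levels was not tested.

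The libraries held 9962415 to 23119390 fragments, as recovered from the FPKM values (fragments scaled to the length of the gene and to the size of the library). Of the defining ILC2 markers, Gata3 measured 287 to 674 FPKM in DSS libraries and 841 to 885 in control libraries. Il1rl1 measured 42.1 to 48.8 and 46.0 to 59.9, and Klrg1 173 to 307 and 254 to 275. Ptgdr2, also among the 15 listed ILC2 genes, was low, at 0 to 0.337 and 0.128 to 0.885. Il5 stood at 58.9 to 73.8 in DSS and 348 to 371 in controls. In 7 of the 15 the highest DSS value was lower than the lowest control value. Of all 12187 genes with a mean of at least 1 FPKM, 9.6% did so, and 14 of the 15 had such a mean. Il22, from the list for group 3 cells (ILC3), measured 48.7 to 262 and 114 to 219. The purity of the sort was not tested. Certain libraries stood apart. DSS replicate 1 had 12.5% of its fragments on ribosomal protein genes, against 5.98% to 8.48% in the other 5 libraries. DSS replicate 3 and control replicate 3 had mean levels of 0.962 and 0.583 FPKM over olfactory receptor genes, whose known use is in sensory neurons, against 0.0342 to 0.182 in the other 4. They also listed the most genes above 0, 22153 and 21647, against 15809 to 19290. In bulk libraries such as these, fewer cells of a type and less RNA per cell cannot be told apart.

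None of the chemokine ligands differed between the groups at an adjusted p under 0.05. The test was limma on log2(FPKM + 1), with Benjamini-Hochberg adjustment over all 12187 genes that had a mean of at least 1 FPKM. Of the 10 ligands, 8 were tested and 0 passed, where 0.222% of all tested genes passed, 0.0738% on the higher and 0.148% on the lower side. The log2 change (DSS minus control) was positive for 5 of the 8 and negative for 3, against 53.1% and 46.9% of all tested genes. With limma voom on recovered fragments, 0 of the 8 passed as well. At an unadjusted p under 0.05 there were 3 of 8 by either method, Ccl1 on the lower side and Ccl3 and Ccl4 on the higher side, where 8.99% of all tested genes reached that level by limma. Ccl3, Ccl4 and Ccl5 had every DSS library above every control library, as 6.35% of all tested genes did, and for Ccl1 all DSS libraries were below all controls, as for 9.6%. The median log2 change of the 8 was 0.30, against 0.031 for all tested genes.

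**Figure D1:**
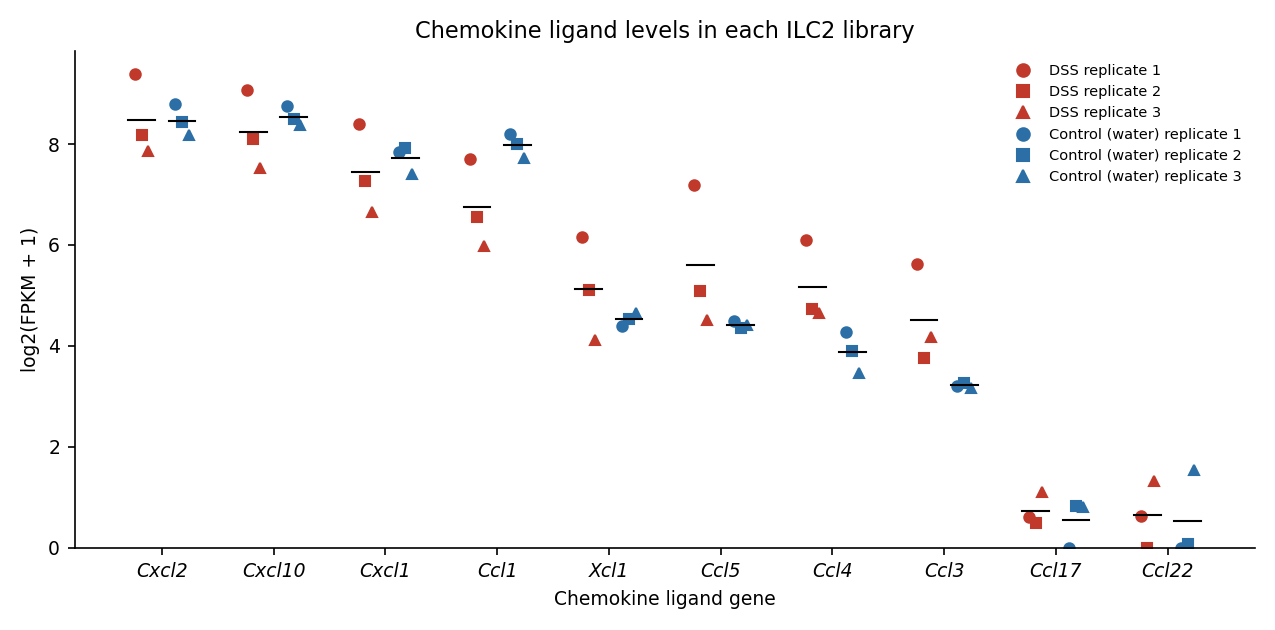
Level of each chemokine ligand gene in every library as log2(FPKM + 1), with DSS libraries in red, control libraries in blue, 1 symbol per replicate number and a line at the group mean (n = 3). Cxcl2, Cxcl10, Cxcl1 and Ccl1 are the most abundant, Ccl17 and Ccl22 are near 0, and DSS replicate 1 is the highest DSS library for each of the 8 tested ligands.

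Cxcl1 and Cxcl2, the neutrophil attractants, lie next to each other on chromosome 5 (mm10, plus strand, 90891241 to 90893115 and 90903871 to 90905938). Cxcl2 was the most abundant of the 10 ligands over the 6 libraries, with 665, 288 and 231 FPKM in DSS replicates 1, 2 and 3, against 445, 343 and 287 FPKM in control replicates 1, 2 and 3. DSS replicate 1 was above all controls, DSS replicate 3 was below all of them, and the groups overlapped. Its means were 395 ± 236 in DSS and 358 ± 79.8 FPKM in controls (SD, n = 3 each), and its log2 change was 0.0054 with a 95% interval of −0.83 to 0.84 (limma adjusted p = 0.998). That interval spans changes of considerable size in both directions. Cxcl1 had 335, 154 and 99.1 FPKM in DSS replicates 1, 2 and 3, and 227, 240 and 168 FPKM in control replicates 1, 2 and 3. It overlapped in the same way, with DSS replicate 1 on top and the other DSS libraries below every control. Its log2 change was −0.28 with an interval of −1.15 to 0.60 (limma adjusted p = 0.891).

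Cxcl10, the interferon-inducible ligand of Cxcr3, lies on chromosome 5 (minus strand, 92346638 to 92348889) inside the locus of Art3, which runs on the opposite strand and shares 133 exonic bases with it. The libraries do not mark the strand, but Art3 was listed at no more than 4.2005 FPKM in any library. Cxcl10 measured 538, 272 and 183 FPKM in DSS replicates 1, 2 and 3, and 432, 360 and 330 FPKM in control replicates 1, 2 and 3. Again DSS replicate 1 lay above the controls and the other DSS libraries below them. The log2 change was −0.31, with an interval of −1.10 to 0.48 (limma adjusted p = 0.865). Cxcl9 and Cxcl11, the other interferon-inducible ligands of Cxcr3, were far less abundant. Cxcl9 averaged 4.32 ± 2.76 FPKM in DSS and 2.15 ± 0.803 in controls, and Cxcl11 0.921 ± 0.140 and 0.949 ± 0.158 (SD, n = 3 each).

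Ccl1 lay lower in every DSS library than in any control. It measured 207, 92.8 and 61.9 FPKM in DSS replicates 1, 2 and 3, against 293, 255 and 210.8 FPKM in control replicates 1, 2 and 3. The nearest libraries, DSS replicate 1 and control replicate 3, were almost level. Its means were 121 ± 76.5 in DSS and 253 ± 41.1 in controls (SD, n = 3 each), a ratio of 0.477, and the log2 change was −1.23 ± 0.38 SE (limma adjusted p = 0.308). Without DSS replicate 1 the log2 change was −1.71 ± 0.19 SE and passed (limma adjusted p = 8.55e-04), as did 2.32% of the 12530 genes tested there on the lower side. Without both replicates 3 it was −0.97 and did not pass (limma adjusted p = 0.473). Levels compared between these genes need care. The length behind its FPKM came out as 2126 bases, that of the longest of 3 transcripts in GENCODE M21, which reaches over chromosome 11 from 82176657 to 82305690 (minus strand), while the shortest has 514 bases. If its fragments came from the shortest, its level per base would be 4.14 times the listed one, in every library alike. The same factor would be 4.68 for Cxcl2, 3.93 for Cxcl10 and 5.42 for Ccl22, so the order of abundance, the ratios between ligands and the shares of the summed FPKM hold for the listed lengths.

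Ccl3 and Ccl4, the macrophage inflammatory proteins, lie close together on chromosome 11 on opposite strands (Ccl3, minus, 83647844 to 83649355; Ccl4, plus, 83662584 to 83664683). Ccl3 had 48.5, 12.5 and 17.2 FPKM in DSS replicates 1, 2 and 3, against 8.26, 8.61 and 8.04 FPKM in control replicates 1, 2 and 3. The controls agreed closely (coefficient of variation 3.47%), whereas the DSS libraries did not (75.1%), and the groups did not overlap. Its log2 change was 1.31 ± 0.41 SE (limma adjusted p = 0.320), or 0.75 ± 0.19 SE without DSS replicate 1 (limma adjusted p = 0.0564). Ccl4 had 67.8, 25.6 and 24.3 FPKM in DSS replicates 1, 2 and 3, against 18.3, 13.9 and 10.04 FPKM in control replicates 1, 2 and 3. Here too each DSS library lay above each control, with DSS replicate 1 far ahead. Its log2 change was 1.29 ± 0.38 SE (limma adjusted p = 0.278), or 0.82 ± 0.22 SE without DSS replicate 1 (limma adjusted p = 0.0679).

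Ccl5, known from cytotoxic lymphocytes, lies on chromosome 11 (minus strand, 83525778 to 83530518). It had 145, 33.1 and 21.8 FPKM in DSS replicates 1, 2 and 3, against 21.4, 19.5 and 20.4 FPKM in control replicates 1, 2 and 3. The groups did not overlap, but DSS replicate 3 was only just above the highest control, and DSS replicate 1 was 6.65 times DSS replicate 3, the widest such gap of the 8 tested ligands. The log2 change was 1.18 ± 0.55 SE (limma adjusted p = 0.587), and without DSS replicate 1 it was 0.38 ± 0.18 SE. Xcl1, lymphotactin, lies on chromosome 1 (minus strand, 164931644 to 164935527). It had 70.8, 33.4 and 16.3 FPKM in DSS replicates 1, 2 and 3, and 20.1, 22.2 and 24 FPKM in control replicates 1, 2 and 3. DSS replicate 3 was below every control and the other DSS libraries above them. The log2 change was 0.60 ± 0.43 SE (limma adjusted p = 0.762), with 0.080 without DSS replicate 1 and 1.17 without both replicates 3. The antisense gene Gm20743 shares 98 exonic bases with Xcl1 and was listed at no more than 1.01 FPKM.

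Ccl17 and Ccl22, both on chromosome 8 (plus strand, 94810453 to 94812036 and 94745590 to 94751699), stayed under a mean of 1 FPKM and were not tested. Ccl17 had 4, 4 and 6 fragments in DSS replicates 1, 2 and 3, and 0, 7 and 5 in control replicates 1, 2 and 3, which is 0.519, 0.405 and 1.16 FPKM and 0, 0.768 and 0.758 FPKM. Ccl22 had 18, 0 and 34 fragments in DSS replicates 1, 2 and 3, and 0, 2 and 54 in control replicates 1, 2 and 3, which is 0.542, 0 and 1.52 FPKM and 0, 0.0509 and 1.8998 FPKM. Its highest libraries in either group were the replicates 3, where olfactory receptor transcripts were also highest. At this depth no difference of either gene was detectable. Without a filter on low values their log2 changes were 0.19 ± 0.39 SE and 0.12 ± 0.51 SE.

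**Figure D2:**
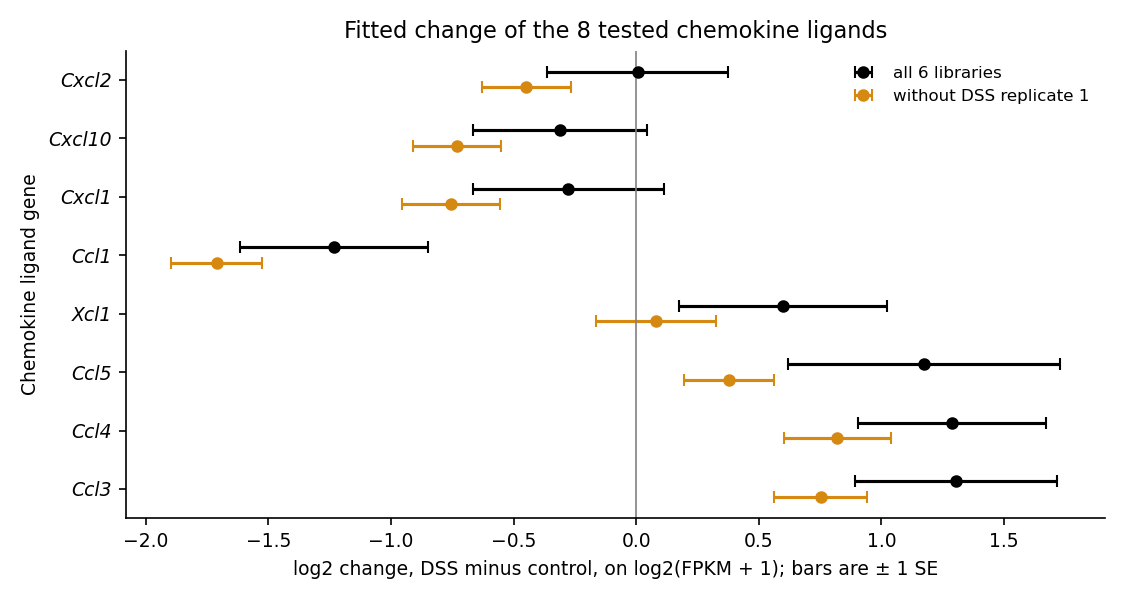
Fitted log2 change (DSS minus control, on log2(FPKM + 1)) of the 8 tested chemokine ligands with bars of 1 SE, from all 6 libraries in black and without DSS replicate 1 in orange. Ccl1 is on the negative side in both fits and moves to −1.71 in the second, and each of the 8 values is lower without DSS replicate 1.

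DSS replicate 1 was the highest DSS library for all 8 tested ligands, as it was for 25.1% of all tested genes. DSS replicate 3 was the lowest for 7, the exception being Ccl3, and the share of all genes lowest there was not counted. The part of the high ribosomal protein share of DSS replicate 1 in this order of libraries was not tested. The sum of the 10 ligands was 2079, 912 and 657 FPKM in DSS replicates 1, 2 and 3, and 1465, 1264 and 1060 FPKM in control replicates 1, 2 and 3. A difference taken within a library removes any height that its ligands share. Each of the 28 pairs of tested ligands was compared by its difference of log2(FPKM + 1) within a library, a comparison chosen after the values were seen. Of the 28 pairs, 19 had no overlap between DSS and control libraries, as 16.2% of all pairs of tested genes did. Pairs share members, so they are not independent. By an exact permutation test (two-sided), 3 libraries against 3 cannot go below p = 0.1, which adjusted over the 28 pairs is 0.147, so none of these differences could pass.

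Ccl1 stood lower against every other tested ligand, in 7 of its 7 pairs. The ratio of Ccl1 to Cxcl1 in FPKM was 0.618, 0.602 and 0.625 in DSS replicates 1, 2 and 3, and 1.29, 1.06 and 1.26 in control replicates 1, 2 and 3. DSS replicate 1, whose levels were the highest of the DSS libraries, was here level with the other DSS libraries. As log2 differences these were −0.70 ± 0.028 in DSS and 0.26 ± 0.15 in controls (SD, n = 3 each; exact permutation p = 0.1). Against Cxcl2 the ratio was 0.312, 0.322 and 0.268 in DSS replicates 1, 2 and 3, and 0.659, 0.743 and 0.734 in control replicates 1, 2 and 3. Against Cxcl10 it was 0.385, 0.341 and 0.339 in DSS replicates 1, 2 and 3, and 0.678, 0.709 and 0.639 in control replicates 1, 2 and 3. Ccl1 accordingly made up 9.43% to 10.2% of the summed FPKM of the 10 ligands in DSS libraries and 19.9% to 20.2% in control libraries.

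Ccl3, Ccl4 and Ccl5 stood higher against Cxcl1, Cxcl2 and Cxcl10 in all 9 such pairs. The ratio of Ccl4 to Cxcl2 was 0.102, 0.0890 and 0.105 in DSS replicates 1, 2 and 3, and 0.0411, 0.0406 and 0.0350 in control replicates 1, 2 and 3, with DSS replicate 1 level with the other DSS libraries. For Ccl5 to Cxcl2 it was not, at 0.218, 0.115 and 0.0943 in DSS replicates 1, 2 and 3, and 0.0483, 0.0568 and 0.0711 in control replicates 1, 2 and 3. Ccl3, Ccl4, Ccl5 and Xcl1 together were 11.5% to 15.97% of the summed FPKM of the 10 ligands in DSS libraries and 4.65% to 5.895% in control libraries. Within each set most proportions overlapped. The ratio of Ccl3 to Ccl4 was 0.715, 0.488 and 0.707 in DSS replicates 1, 2 and 3, and 0.452, 0.618 and 0.801 in control replicates 1, 2 and 3. That of Cxcl1 to Cxcl10 was 0.623, 0.565 and 0.542 in DSS replicates 1, 2 and 3, and 0.526, 0.669 and 0.508 in control replicates 1, 2 and 3. Cxcl2 to Cxcl10 was an exception, at 1.24, 1.06 and 1.26 in DSS replicates 1, 2 and 3, and 1.03, 0.954 and 0.871 in control replicates 1, 2 and 3. A ratio shows unequal change and not that either gene stayed level.

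**Figure D3:**
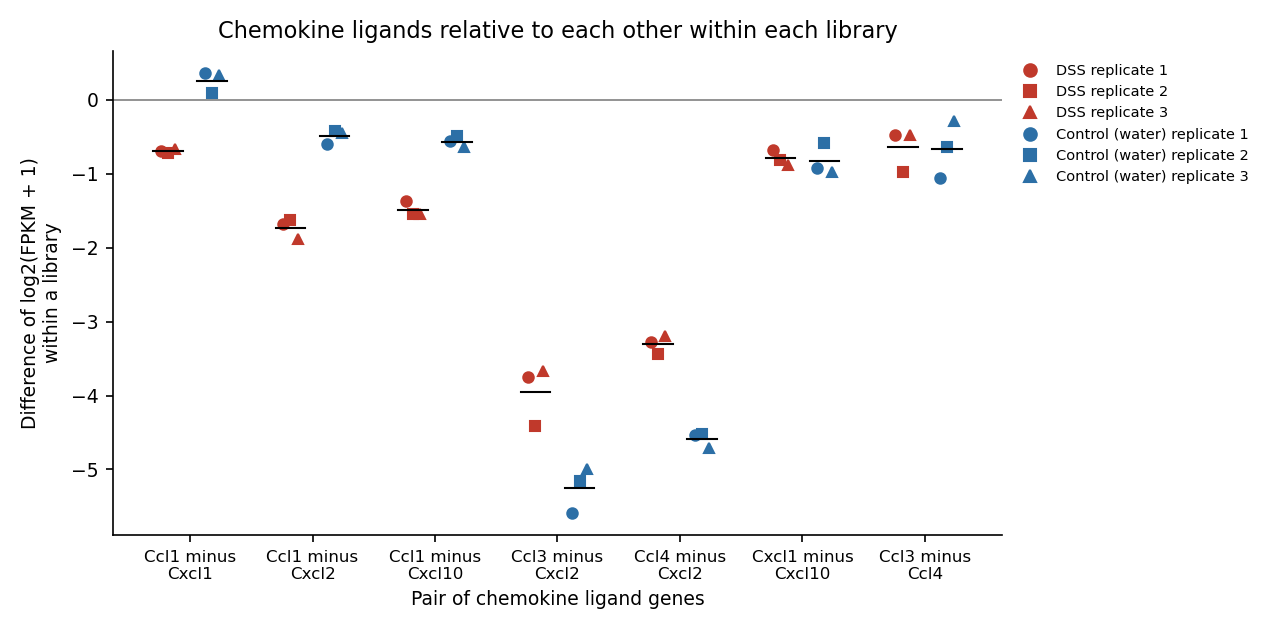
Difference of log2(FPKM + 1) between pairs of chemokine ligands within each library, with DSS libraries in red, control libraries in blue and a line at the group mean (n = 3). Ccl1 minus Cxcl1, Cxcl2 or Cxcl10 is lower in each DSS library than in any control, Ccl3 and Ccl4 minus Cxcl2 are higher, and Cxcl1 minus Cxcl10 and Ccl3 minus Ccl4 overlap.

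The genes whose centred profile over the 6 libraries lay nearest were sought among 6593 genes with a mean of at least 5 FPKM. For Ccl1 these were Lgals1, which encodes galectin-1, Bcl2a1d, a survival gene, and Evi2a, with root mean square differences of 0.118 to 0.195 on the log2 scale. Lgals1 measured 189.7, 98.5 and 67.8 FPKM in DSS replicates 1, 2 and 3, and 345, 252 and 233 in control replicates 1, 2 and 3. For Cxcl10 they were Cox5a, Pomp and Ndufb6 (0.0736 to 0.0884), for Cxcl1 Ndufa4, Ccdc124 and Pomp (0.0755 to 0.124), and for Cxcl2 Micos10, Mrpl32 and Cox20 (0.102 to 0.107). Cox5a, Ndufb6 and Ndufa4 encode subunits of the respiratory chain, and Pomp a proteasome assembly factor. For Xcl1 they were Bola1, the histone gene H1f4 and the ribosomal protein gene Rplp2 (0.103 to 0.158). The nearest to Ccl3 and Ccl4 was the same gene, Ube2c, a ubiquitin-conjugating enzyme of mitosis (0.207 and 0.138), followed by Lst1 and Dusp2 for Ccl3 and by Ly6c1 and Hspe1 for Ccl4. For Ccl5 they were Plac8, Terc and the histone gene H3c1 (0.286 to 0.309).

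Of 29 other chemokine ligand genes, 14 were tested, 10 with a positive and 4 with a negative log2 change, and 0 passed by limma or by voom. Their median log2 change was 0.56, against 0.031 for all tested genes, of which 53.1% had a positive change. At an unadjusted p under 0.05 were 5 by limma, Cx3cl1, Ccl6, Ccl2, Ccl27a and Ccl11, and 2 by voom. By limma 8.99% of all tested genes reached that level. Cx3cl1, fractalkine, had 3.30, 10.2 and 10.5 FPKM in DSS replicates 1, 2 and 3, against 17.3, 25.1 and 23.6 FPKM in control replicates 1, 2 and 3 (log2 change −1.47 ± 0.37 SE, limma adjusted p = 0.1803). Every DSS library lay below every control. Ccl11, the eosinophil attractant eotaxin, averaged 0.436 ± 0.0587 in DSS and 1.95 ± 0.501 FPKM in controls. Of the monocyte attractants, Ccl2 was at 4.74 ± 1.35 in DSS and 2.25 ± 0.730 FPKM in controls, and Ccl7 at 2.76 ± 1.03 and 1.44 ± 0.600. Ccl6, known from myeloid cells, averaged 2.99 ± 2.17 and 0.0361 ± 0.0625, and Ccl27a 3.70 ± 1.60 and 1.34 ± 0.502 (SD, n = 3 each). Cxcl3, a neutrophil attractant related to Cxcl1 and Cxcl2, was singled out after its values were seen as the only other ligand with levels like theirs. It had 320, 114 and 58.96 FPKM in DSS replicates 1, 2 and 3, and 168, 146 and 111 FPKM in control replicates 1, 2 and 3, with the same order of libraries as Cxcl2.

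The receptors of these ligands were low, apart from Ccr8 and Ccr4. Of 10 receptor genes, 5 were tested, 1 with a positive and 4 with a negative log2 change, and Ccr4 passed on the lower side. Over all tested genes 53.1% had a positive change and 0.148% passed on the lower side. Ccr8, the receptor of Ccl1, was by far the most abundant, with 1628, 1370 and 1304 FPKM in DSS replicates 1, 2 and 3, against 3061, 3085 and 2562 FPKM in control replicates 1, 2 and 3. All DSS libraries lay well below all controls (log2 change −1.02 ± 0.23 SE, limma adjusted p = 0.144), and it passed in 2 of 17 alternatives. Ccr4, the receptor of Ccl17 and Ccl22, fell to 43.8, 63.8 and 60.3 FPKM in DSS replicates 1, 2 and 3, against 151, 157 and 158 FPKM in control replicates 1, 2 and 3 (log2 change −1.48 ± 0.21 SE, limma adjusted p = 0.0426). That call passed in 6 of 17 alternatives and not with the replicate block (limma adjusted p = 0.0547), while its log2 change lay between −1.58 and −1.31 in all 17. Xcr1, the receptor of Xcl1, averaged 1.897 ± 0.967 in DSS and 6.36 ± 1.55 FPKM in controls, without overlap (limma adjusted p = 0.156). Cxcr3 averaged 1.70 ± 0.679 and 2.07 ± 1.54, and the scavenging receptor gene Ackr1 6.16 ± 4.195 and 2.93 ± 2.48. Ccr1, Ccr3, Cxcr1, Cxcr2 and Ackr2 had means under 1 FPKM over the 6 libraries and were not tested. Among 11 other chemokine receptors 8 were tested, 3 with a positive and 5 with a negative log2 change, and Ccr7 passed on the lower side (58.7 ± 14.5 in DSS and 167 ± 13.7 FPKM in controls), again in 6 of 17 alternatives and not with the block (limma adjusted p = 0.0707). Cxcr6 averaged 298 ± 31.0 and 589 ± 23.4, Cxcr4 55.2 ± 1.34 and 66.9 ± 9.17, Ccr2 15.5 ± 1.46 and 19.6 ± 4.01, Ccr6 6.97 ± 2.05 and 3.34 ± 2.995 and Cx3cr1 1.44 ± 0.822 and 2.19 ± 0.533, none of which passed.

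**Figure D4:**
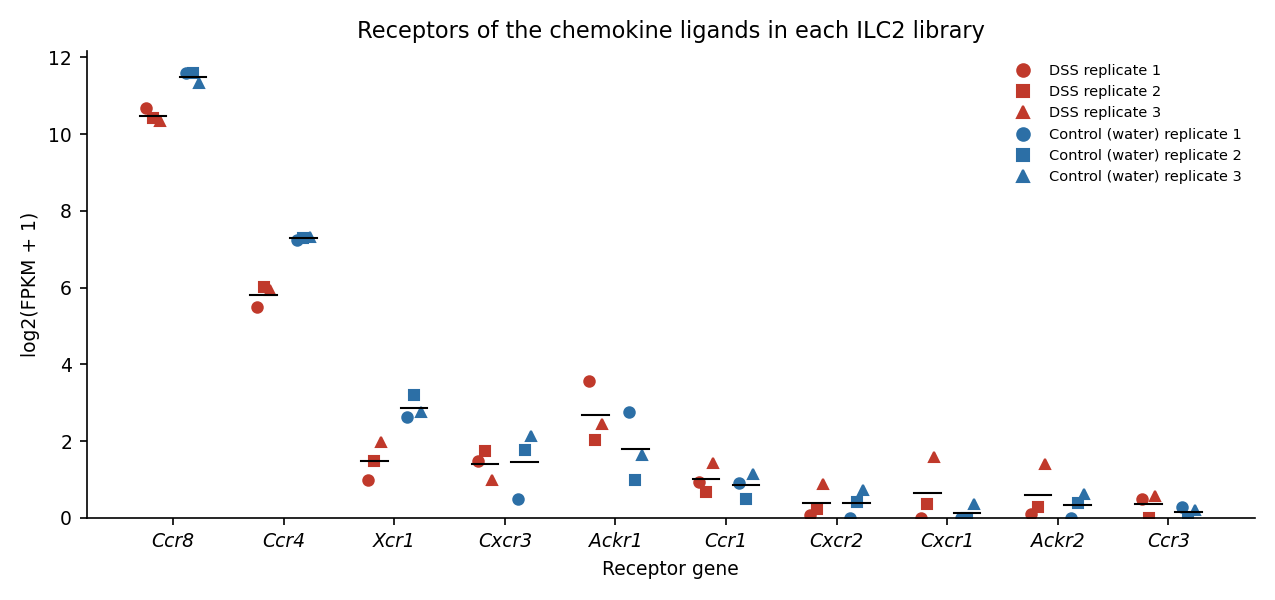
Level of 10 receptors of the chemokine ligands in every library as log2(FPKM + 1), with DSS libraries in red, control libraries in blue and a line at the group mean (n = 3). Ccr8, Ccr4 and Xcr1 lie lower in all DSS libraries than in all controls, and every receptor other than Ccr8 and Ccr4 stays at or below 10.9 FPKM.

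Which ligands go with ILC2s and which with other cells was set beside marker transcripts of the cell types a colon sort could hold. Cxcl2, Cxcl10, Cxcl1 and Ccl1 were high in the control libraries, at the 98.49 to 99.34 percentile of all genes. Defining markers of neutrophils and macrophages were at 0 or low there. The neutrophil markers S100a8, S100a9 and Ly6g lay between 0 and 1.502 FPKM in controls, and the macrophage markers Csf1r and Adgre1 between 0 and 1.34 and Lyz2 between 1.96 and 5.49. The epithelial markers Epcam, Krt8 and Cdh1 reached 10.5 FPKM, the stromal markers Col1a1 and Pdgfrb 3.84 and the endothelial marker Pecam1 13.3. The whole neutrophil list of 14 genes summed to 10.9 to 17.8 FPKM in controls and the macrophage list of 15 to 14.97 to 23.6. Cxcl1 measured 168 to 240 there. Other lists summed to more in controls, dendritic cells to 434 to 520, NK and ILC1 to 374.7 to 504.7 and ILC3 to 236 to 346. A marker sum does not show how much ligand a few cells could make, and the source of the 4 ligands was not tested. In DSS libraries the neutrophil and macrophage lists summed to 76.7 to 126.9 and 42.4 to 56.7 FPKM, and the epithelial list of 15 to 57.5 to 59.6 against 21.8 to 41.7 in controls. Of the neutrophil list 3 of 8 tested genes passed, S100a8, S100a9 and Retnlg, all higher in DSS, and with voom 0 of them passed. Of all tested genes 0.0738% passed on the higher side by limma. S100a8 and S100a9 were the main part of the DSS sums, at 24.05 to 32.2 and 36.02 to 43.3 FPKM in DSS. Of the 14 genes 4 had every DSS library above every control, as 6.35% of all tested genes did. The defining marker Ly6g was at 0, 0 and 0.210 FPKM in DSS replicates 1, 2 and 3.

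Ccl3, Ccl4, Ccl5 and Xcl1 were lower, at 8.04 to 24 FPKM in controls. Transcripts of cytotoxic lymphocytes, some of which ILCs can also express, ranged widely there. Picked from the NK and ILC1 list of 12, Nkg7 stood at 248 to 312, Gzmb at 43.3 to 72.2, Gzma at 20.01 to 36.9 and Klrd1 at 0.552 to 2.97 FPKM. The defining NK markers Ncr1, Klrb1c and Eomes lay at 0 to 6.57. In DSS Nkg7 measured 72.7 to 274, Gzmb 37.4 to 62.0, Gzma 21.8 to 41.6 and Klrd1 2.89 to 5.59 FPKM. Of the 12, only 1, Klrk1, had every DSS library above every control, as 6.35% of all tested genes did. It measured 19.8 to 32.7 FPKM in DSS and 14.3 to 19.2 in controls. For 0 of the 12 was every DSS library below every control. DSS replicate 1, the library with the highest levels of all 4 ligands, was the highest of the 6 libraries for 4 of the 9 T cell genes in the table and the lowest for 1, and the highest for 5 of 12 NK and ILC1 genes and the lowest for 1. It was the highest for 3 of 6 B and plasma cell, 3 of 15 epithelial, 2 of 14 neutrophil and 0 of 11 mast cell and basophil genes. The share over all genes was not counted, so these counts have no background to be read against. Among the defining T cell and NK markers DSS replicate 1 was the highest for Cd3d (13.6 against 1.06 to 4.82 FPKM in the other 5), Cd3g (37.6 against 17.04 to 26.01) and Ncr1 (10.2 against 1.77 to 6.57). It was the lowest for Cd3e (1.62 against 1.66 to 4.43) and in mid-range for Klrb1c (2.49 against 0.962 to 4.87). Of the 15 ILC2 genes it was the lowest for 7, Gata3 among them, and the highest for 3, Klrg1, Il7r and Areg. The T cell list of 12, of which 9 were in the table, summed to 64.0 FPKM there and to 22.1 to 38.8 in the other 5 libraries. The NK and ILC1 list of 12 summed to 211.5 to 504.4 in DSS and 374.7 to 504.7 in controls, and the ILC3 list of 7 to 85.3 to 338 and 236 to 346. The B and plasma cell list of 8, with 6 in the table, summed to 48.5 to 291 in DSS and 26.6 to 38.3 in controls.

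For Ccl17 and Ccl22, the dendritic cell markers Flt3 and Itgax lay between 0.528 and 2.18 FPKM in DSS and between 0 and 1.04 in controls, and Zbtb46 at 1.48 to 5.32 and 8.36 to 9.83. The whole dendritic cell list of 14 summed to 686 to 909 FPKM in DSS and 434 to 520 in controls, most of it from Cd74 and the class II genes H2-Ab1, H2-Eb1 and H2-Aa. Mast cell and basophil genes (11) summed to 23.2 to 55.6 in DSS and 58.4 to 72.9 in controls. Most of that came from 1 gene, Kit, at 20.2 to 36.5 and 57.7 to 63.3 FPKM. Mcpt8 went the other way, at 1.84 to 2.98 in DSS and 0 to 0.908 in controls. Eosinophil genes (6) summed to 0.897 to 5.64 and 0.254 to 1.64, and stromal and endothelial genes (13) to 17.8 to 48.6 and 24.9 to 45.5. The eosinophil markers Siglecf, Epx and Prg2, the basophil marker Mcpt8 and the B cell marker Ms4a1 were listed at 0 in 1 or more libraries, as were S100a8, Ly6g, Csf1r, Adgre1, Itgax, Eomes and Fcer1a. The ILC2 list of 15 summed to 2680 to 2874 in DSS and 3595 to 3887 in controls. The part of any of these cell types in the ligand levels was not tested.

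**Figure D5:**
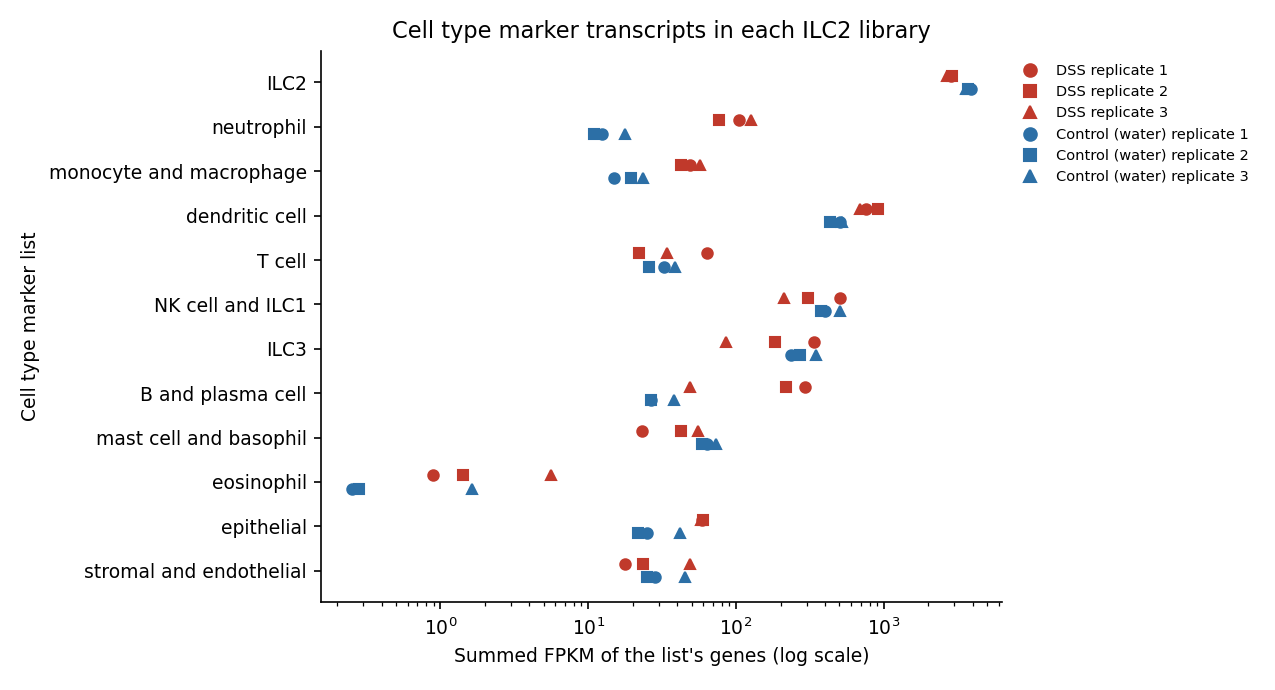
Summed FPKM of each cell type marker list in every library on a log axis, with DSS libraries in red above control libraries in blue. The ILC2 list is the highest in every library, the neutrophil, macrophage, dendritic, B and plasma and epithelial sums of the DSS libraries lie above those of the controls, and the T cell, NK and ILC3 sums overlap.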

How the data were processed

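RNA sequencing of 3 DSS and 3 control libraries was analysed from the 1 table the authors deposited, which holds FPKM values for 23268 genes. The labels' protocols name TRIzol for extraction, SMART-Seq HT for cDNA and Nextera XT for the libraries, and these kits keep no strand. Per the submitters' processing notes, cutadapt 1.9, HISAT2 2.2.1 and mm10 were used; counting tool and annotation: not given in the sources used here. Groups came from the titles.

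Whole fragments (tolerance 0.001) were recovered from the FPKM steps for 22701 of 22701 genes above 0, and gave each gene's length against GENCODE M21; those of Ccl22 were multiplied by 2 to meet its annotated 2216 bases. A factor common to all libraries of a low gene cannot be seen. Fragments differed between libraries far beyond sampling noise. The test was limma 3.58.1 in R 4.3.3 (lmFit and eBayes with a trend, two-sided; pseudocount 1, mean of at least 1 FPKM, threshold 0.05), tested on simulated data. Same-numbered libraries deviated together (correlations 0.189, 0.262 and 0.545), each above 0.1. Differently numbered ones did too, DSS replicate 1 with control replicate 2 (0.101) and DSS replicate 2 with control replicate 1 (0.345). The values therefore do not single out a pairing by number, and the labels do not say what the numbers mark. The main test has no block. Alternatives were other pseudocounts, filters and scalings, no trend, the replicate block, voom and left-out libraries; for named genes other than the ligands they were added after the data were seen.

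Some listed genes are not reported here. The members and lists were chosen with earlier results of these data known. Named by rule were all 10 ligands, their receptors, the 6 smallest p of the other ligands and receptors, the first 3 genes of each marker list (of which not all are given) and the 3 nearest profiles per ligand. Further genes were named outside this rule, among them Cxcl3, Cxcl9, Cxcl11, Nkg7, Gzmb, Gzma, Klrd1, Klrk1, Kit, Retnlg, Il7r, Areg, Ptgdr2, Il22, Cd74 and the class II genes. Python 3.11.15 with pandas 2.3.3, scipy 1.17.1 and matplotlib 3.10.9 served for tables and figures.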

Additional observations from a re-analysis of the deposited data

How the results depend on the processing

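The count of genes passing over the whole table, 27, was 9 after median-of-ratios scaling, 14 after rescaling to an equal FPKM total, 4 without the trend and 8 without both replicates 3, and it ran from 5 to 435 when 1 library was left out, the highest without DSS replicate 1; the cause was not tested. The count of chemokine ligands passing was 0 in each alternative other than leaving out DSS replicate 1, so it ran from 0 to 1 over the left-out libraries, and the 1 was Ccl1. With the replicate block 22 genes and 0 ligands passed, and the block changed no call of a ligand but ended those of Ccr4 (limma adjusted p = 0.0547) and Ccr7 (0.0707). Ccr4 and Ccr7 each passed in 6 of 17 alternatives, Retnlg in 4, and S100a8 and S100a9 in 16, all but voom; these were chosen after seeing the data.

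The signs of Ccl1, Ccl3, Ccl4, Ccl5 and Xcl1 held in all 17 alternatives. With 1 library left out, the log2 change of Ccl1 ran from −1.71 to −0.85, Ccl3 from 0.75 to 1.69, Ccl4 from 0.82 to 1.54, Ccl5 from 0.38 to 1.72 and Xcl1 from 0.080 to 1.11. Cxcl1 ran from −0.75 to 0.12 and Cxcl10 from −0.73 to 0.044, both positive only without DSS replicate 3. Cxcl2 ran from −0.45 (without DSS replicate 1) to 0.31, and it was −0.021 after median-of-ratios scaling, −0.058 with an equal total and −0.040 after quantile normalization. Cxcr3 was 0.065 with a pseudocount of 0.1, 0.61 with voom, 0.49 without both replicates 3 and from −0.55 to 0.28 with 1 library left out. Cxcl3 was 0.29 without both replicates 3 and ran from −0.76 to 0.45. The adjusted p of Ccl1 ran from 8.55e-04 to 0.965 over its settings, that of Ccl3 from 0.0564 to 0.922 and that of Ccl4 from 0.0679 to 0.818. Depth limits Ccl17 and Ccl22, which rest on 0 to 54 fragments per library.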
